A study of Homo sapiens with 2 samples.

Results

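The genes described here were lower after miR-99a than after the control at both of their brightest probe sets. C4-2 cells, an established human prostate cancer line of LNCaP descent, were transfected by the RNAiMax reagent for 48 h with miR-99a or with si-GL2, the control small interfering RNA, and both cultures grew in RPMI medium with fetal bovine serum. Total RNA of each was hybridised to 1 Affymetrix array. A probe set is the group of short probes that reports 1 stretch of a transcript, and its signal intensity is used here as log2(signal + 16), with every difference given as miR-99a minus si-GL2. With 1 array per group no difference has a replicate error and none was tested.

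A probe set counted as expressed when its mean over both arrays reached the median of all 54675 probe sets, a signal of 47.2. Of 12218 genes with an expressed probe set, 5842 had 2 or more. Among these, 159 (2.72%) were lower by at least 1.5-fold, a difference at or below -0.585, at their brightest probe set, as were 2.89% of all 12218. The second brightest lay below 0 for 136 of the 159, and for 51.9% of the 5842. Those 136 genes are 2.33% of the 5842. Of these 136, 10 belonged to a set of 11 named genes that was left out of the selection, and 126 remained as members. The members are therefore 126 of 5842 genes, or 2.16%. Both differences were used to choose them, so their direction is a property of the selection and not a finding.

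MicroRNAs pair with messenger RNAs mainly through the seed, bases 2 to 8 from the 5′ end, and the paired messages are translated less and degraded faster. The messages that are lower some days after a transfection include direct targets and also genes that respond to them, and an array does not part these. The transfected microRNA belongs to a family whose 3 mature sequences share the seed. They are shown because the seed is what a direct target would have to match, and the seed is in capitals (RefSeq, GRCh38.p14; chr21:16539101-16539122 plus strand, chr11:122152275-122152296 minus strand and chr19:51692618-51692639 plus strand).
hsa-miR-99a-5p: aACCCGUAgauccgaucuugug
hsa-miR-100-5p: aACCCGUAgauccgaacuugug
hsa-miR-99b-5p: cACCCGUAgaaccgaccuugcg
A message with a full seed match would hold UACGGGU. The members' messages were not searched for it, because transcript sequences were not used here.

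The arrays were closely comparable. The 18 hybridisation spike probe sets differed by between -0.12 and 0.062, and the array medians by 0.0093. These measures do not show that the whole distributions matched. After quantile normalization, which gives both arrays 1 distribution, 97 of the 126 members stayed past 1.5-fold at the brightest probe set. The 6 luminal prostate markers measured were expressed on both arrays, at 378 to 6982 after miR-99a and 312 to 7147 after si-GL2. None of 3 basal markers reached the limit, and 1 of 3 leukocyte, 1 of 4 endothelial and 3 of 4 fibroblast markers did. Their summed signals after miR-99a and si-GL2 were 40.4 and 47.65 for basal, 118 and 77.1 for leukocyte, 249 and 250.04 for endothelial and 393 and 363 for fibroblast markers, and their part in the members' values was not tested. In such bulk RNA, fewer cells of a type and less RNA per cell cannot be told apart.

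At the brightest probe set the members' differences ran from -1.32 to -0.59 with a median of -0.70, where the median over all 5842 genes was -0.03. At the second brightest they ran from -1.67 to -0.0011 with a median of -0.48, against -0.01 over all. Both probe sets were past 1.5-fold in 41 members (32.5%), and over all 5842 genes in 0.839%. The second alone was past 1.5-fold in 2.62% of the 5842. In 54 members the second lay between -0.585 and -0.25, and in 31 it lay above -0.25. The second was the lower of the pair in 21 members. Past 2-fold were 14 members at the brightest probe set, 8 at the second and 4 at both, namely CPEB3, DRAIC, GLYATL1 and KCTD10. Of all 5842 genes, 0.377% were past 2-fold at the brightest, 0.342% at the second and 0.137% at both.

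**Figure D1:**
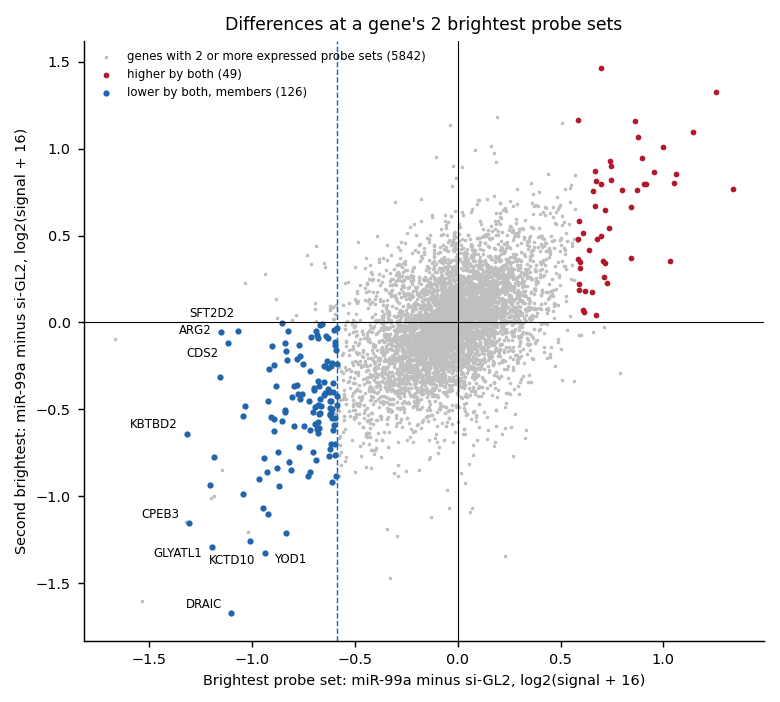
Difference at the brightest (horizontal axis) and second brightest (vertical axis) expressed probe set of each gene, both as miR-99a minus si-GL2 on the log2(signal + 16) scale; each point is 1 gene and the dashed line marks -0.585. The 126 members (blue) fill the lower left region that the selection defines, and 49 genes (red) meet the mirrored rule.

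The members were dimmer than the genes they were drawn from. Their brightest probe sets had a median signal of 322, against 561 over all 5842 genes, and their second brightest 163 against 199.7. The size of the second difference went with the brightness of that probe set. Where both probe sets were past 1.5-fold the second had a median signal of 279, where it lay between the limits 165, and where it was above -0.25 only 97.2. On the log2(signal + 16) scale a given fold yields a smaller difference at a dim probe set, and the part of this in the members' values was not tested. The mirrored group of 49 genes that were higher had median signals of 503 and 155, and its second probe sets had a median difference of 0.67.

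DRAIC, a long non-coding RNA studied in prostate cancer cells, had the lowest mean over its pair of probe sets. Its signals were 66.4 after miR-99a and 161 after si-GL2 at the brightest probe set, and 43.6 and 174 at the second, differences of -1.10 and -1.67. GLYATL1, an acyltransferase of amino acid conjugation, was at 465 and 1087 by the brightest probe set (-1.20) and at 94.9 and 255 by the second (-1.29). Its remaining, dim probe set went the other way, at 64.8 and 56.0 (0.17). CPEB3, which binds messenger RNAs and controls their polyadenylation and translation, was at 87.0 and 239 (-1.31), 44.3 and 118 (-1.16), and 32.4 and 89.2 (-1.12) by its 3 expressed probe sets. All 3 of CPEB3 were thus past 2-fold, while its remaining probe set, below the limit, was at -0.25. KCTD10, an adaptor that brings substrates to cullin-3 ubiquitin ligases, was at 219 and 458 (-1.01) and at 189 and 473 (-1.26). The deubiquitinase YOD1 was at 475 and 923 (-0.93) and at 63.6 and 183 (-1.32).

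**Figure D2:**
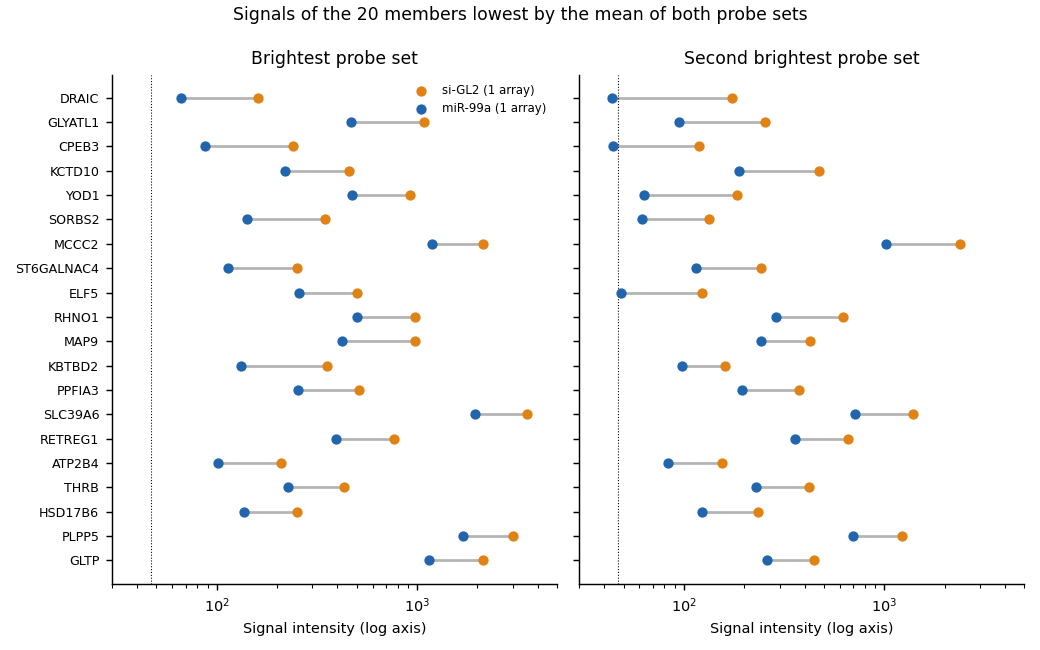
Signal intensity on a log axis after miR-99a (blue) and si-GL2 (orange) for the 20 members lowest by the mean of both differences, with the brightest probe set on the left and the second brightest on the right; each point is 1 array and the dotted line is the expression limit of 47.2. The si-GL2 signal is the higher in all 40 pairs shown, as the selection requires, and the miR-99a signals of DRAIC and CPEB3 lie below the limit at the second probe set.

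Probe sets that the selection did not use give a further view of the same arrays. Of the members, 75 had exactly 2 expressed probe sets and 51 had 3 or more. The 51 held 78 expressed probe sets beyond the brightest pair, of which 67 (85.9%) lay below 0 and 20 (25.6%) were past 1.5-fold, with a median of -0.32. Over all 4347 such probe sets of 2611 genes, 50.2% lay below 0 and 2.58% were past 1.5-fold, with a median of -0.0027. They come from the same 2 RNA samples as the values that chose the members and can share sequence with them, so they are no replicate. Another 66 probe sets of 44 members were below the expression limit, and 41 of these (62.1%) lay below 0, against 46.4% of 3465 such probe sets over all.

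In 41 of the 51 members all expressed probe sets were below 0, and in 6 all were past 1.5-fold: CPEB3, LIN7C, MAP9, PPM1K, SLC39A6 and UHMK1. SLC39A6, the zinc importer ZIP6, was at 1935 and 3543 (-0.87), 717 and 1389 (-0.94), 336 and 569 (-0.73), and 254 and 501 (-0.94). The 4 probe sets of SLC39A6 were thus close to each other over a wide range of brightness. UHMK1, a serine and threonine kinase, had the highest signal of the members, at 2730.0 and 4212 (-0.62), with 452 and 758 (-0.73) at the second and -0.92 and -0.69 at the others. MAP9, a microtubule-associated protein of the mitotic spindle, was at 423 and 981 (-1.18), at 244 and 428 (-0.77), and at -0.60 and -0.69 by the others. TBRG1, a growth regulator linked to TGF-beta and p53, was below 0 at all 6 of its probe sets, with 2211 and 3406 (-0.62) at the brightest, 1643 and 2374 (-0.53) at the second, and between -1.20 and -0.19 at the dimmer ones.

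The other 10 members with 3 or more expressed probe sets had at least 1 above 0. The highest was the dimmest expressed probe set of B4GALT6 at 74.35 and 54.05 (0.37), which left that gene a mean of -0.18 over its expressed probe sets. TMCC1 had 2 of its 6 above 0, at 0.27 and 0.11, against 245 and 406 (-0.70) at the brightest and 213 and 282 (-0.38) at the second. For CDS2, DESI2, DGCR2, GLYATL1, OTULIN, RASA2, SEC22C and TBC1D16 the probe set above 0 lay between 0.040 and 0.17. As means over all expressed probe sets the members ran from -1.39 to -0.18, and 55 of the 126 were past 1.5-fold, against 1.4% of all 5842 genes.

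**Figure D3:**
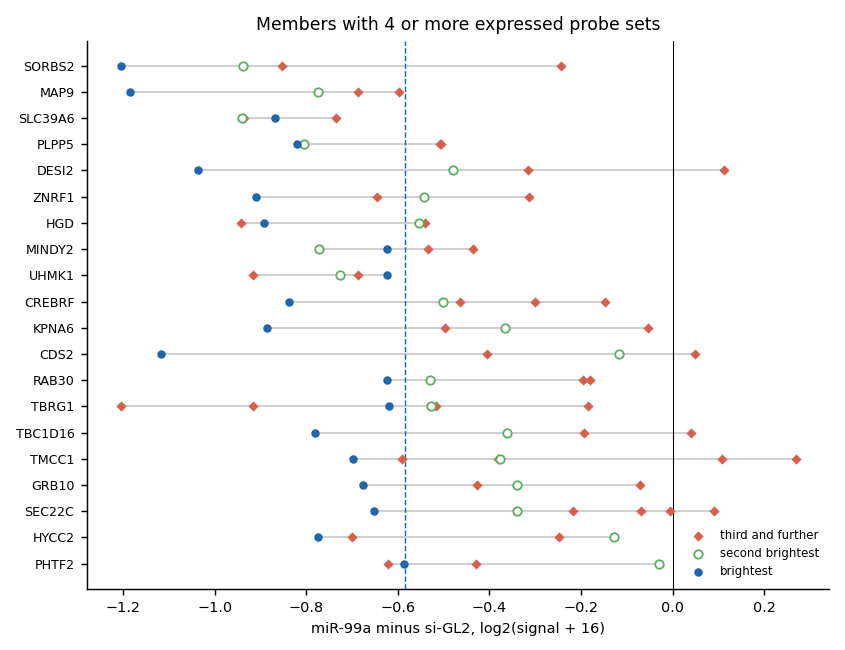
All expressed probe sets of the 20 members that had 4 or more, as miR-99a minus si-GL2 on the log2(signal + 16) scale; blue points are the brightest, open green points the second brightest and red diamonds those further down. MAP9, SLC39A6 and UHMK1 lie wholly beyond the dashed line at -0.585, and DESI2, CDS2, TBC1D16, TMCC1 and SEC22C reach above 0.

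Genes that regulate transcription and chromatin made up 17 members, with median differences of -0.62 and -0.52 at the brightest and second probe sets. ELF5, an epithelial transcription factor of the ETS family, was at 256 after miR-99a and 499 after si-GL2 (-0.92), and at 48.5 and 123 (-1.10) by its second probe set. THRB, a thyroid hormone receptor, was at 227 and 432 (-0.88) and at 228 and 421 (-0.84), with a dim further probe set at -0.11. YAP1, the transcriptional coactivator that the Hippo pathway restrains, was at 658 and 1236 (-0.89) and at 581 and 906 (-0.63), and at 327 and 359 (-0.13) by a dimmer probe set. ZNF25 was dimmer, at 85.0 and 136 (-0.59) and at 66.2 and 136 (-0.88), while ZNF322 was at 592 and 904 (-0.60) and at 201 and 302 (-0.55). These are zinc finger proteins, as are ZNF618, at 114 and 181 (-0.61) and 104 and 143 (-0.40), and ZNF688, at 112 and 182 (-0.63) and 73.8 and 79.6 (-0.090). GRHL1, a grainyhead factor of epithelia, was at 189 and 321 (-0.72) and at 52.2 and 66.6 (-0.28). PHF19, a Polycomb-associated protein, was at 107 and 173 (-0.62) and at 86.6 and 132 (-0.52). PHTF2 was at 910.2 and 1375 (-0.59), and its second probe set, at 287 and 293 (-0.031), barely differed, although its others stood at -0.43 and -0.62. MYBL1, CREBRF and H4C8 lay between -0.86 and -0.61 at the brightest and between -0.62 and -0.50 at the second. HCFC1R1, CBFA2T2 and MBTD1 lay between -0.64 and -0.61 and, at the second, between -0.25 and -0.075. The reading of H4C8 is uncertain, because histone H4 genes are near copies of each other.

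Among 5 members that act on RNA, CPEB3 was lowest. TENT5C, a poly(A) polymerase that stabilises messages, was at 149 and 324 (-1.04) and at 51.8 and 82.6 (-0.54). The helicase DDX49 was at 302 and 499 (-0.70) and at 302 and 461 (-0.58), the exonuclease REXO5 at -0.61 and -0.50, and the splicing regulator RBFOX2 at -0.77 and -0.20.

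Long non-coding RNAs supplied 7 members. The gene table lists 126 such RNAs among the genes with 2 or more expressed probe sets, so 5.56% of them were members, against 2.10% of 5656 protein-coding genes. All 126 had a median of -0.12 at the brightest probe set and the protein-coding genes one of -0.03. After DRAIC came NRAV, a regulator of antiviral genes, at 175 and 315 (-0.79) and at 87.9 and 141 (-0.59), and OTUD6B-AS1 at 674 and 1030.2 (-0.60) and 466 and 709 (-0.59). PART1, a prostate transcript named for its regulation by androgen, was at 238 and 442 (-0.85) by its brightest probe set and at 109.8 and 109.9 (-0.0011) by its second. PART1 is thus a member by a margin that its signals do not resolve. FAM86B2-DT (-0.67 and -0.48), LOC729732 (-0.84 and -0.12) and ZNF232-AS1, at 160 and 265 (-0.68) and 97.4 and 105 (-0.089), complete the group. Where a non-coding RNA overlaps another gene, a probe set may read both.

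The ubiquitin and SUMO system supplied 14 members, from ligase adaptors to enzymes that remove the modifier. The Kelch or BTB adaptors were KCTD10, KBTBD2 and KLHL28. KBTBD2, an adaptor that limits the p85 subunit of PI3 kinase, had the lowest brightest probe set of the 126, at 132 and 354 (-1.32), with 97.5 and 161 (-0.64) at the second and -0.47 at another. KLHL28 was at 862 and 1398 (-0.69) and at 458 and 805 (-0.79). Enzymes that cleave ubiquitin or SUMO were YOD1, MINDY2, OTULIN, DESI2 and SENP1. MINDY2, which trims ubiquitin chains, was at 353 and 552 (-0.62) and at 282 and 492 (-0.77), and its other probe sets were at -0.53 and -0.44. DESI2 was at 242 and 513 (-1.04) and at 138 and 199 (-0.48), but a further probe set of it stood at 109.7 and 100.2 (0.11). OTULIN was at 202 and 326 (-0.65) and at 65.2 and 80.8 (-0.25), and SENP1 at -0.63 and -0.40. The ligases among the members were ZNRF1, RNF170, RNF144B, TMEM129, MYCBP2 and FBXW7. ZNRF1 was at 193 and 377 (-0.91) and at 169 and 254 (-0.54), RNF170 at 283 and 436 (-0.60) and at 75.6 and 139 (-0.76), and RNF144B at 130.06 and 255 (-0.89) and at 69.7 and 85.5 (-0.24). TMEM129 was at 244 and 387 (-0.63) and at 147 and 174 (-0.22), and MYCBP2 at 754 and 1141 (-0.59) and at 477 and 669.8 (-0.48). FBXW7, the substrate receptor that marks cyclin E and other growth regulators for destruction, was at 186 and 309 (-0.69), and its second probe set at 92.6 and 96.4 (-0.050).

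Genes of RAB GTPase cycles and membrane traffic made up 13 members. RAB proteins mark membrane compartments, TBC-domain proteins switch them off, and RAB11FIP proteins carry out the work of RAB11 at recycling endosomes. RAB15, of endosomal recycling, was at 269 and 448 (-0.70) and at 261 and 448 (-0.74). RAB30, of the Golgi apparatus, was at 168 and 268 (-0.62) and at 133 and 199.8 (-0.53), with dimmer probe sets at -0.18 and -0.20. TBC1D1 and TBC1D4, paralogs that AKT phosphorylates in insulin-driven glucose transporter traffic, were at 291 and 473 (-0.67) and 227 and 374 (-0.68) by their brightest probe sets. Their second probe sets were at 47.35 and 80.4 (-0.61) and at 92.4 and 135 (-0.48). TBC1D16 was at 206 and 365 (-0.78) and at 212 and 277 (-0.36). RAB11FIP2 was at 246 and 387 (-0.62) and at 214 and 299 (-0.45), and RAB11FIP4 at 140.01 and 247 (-0.75) and at 68.5 and 83.8 (-0.24). RETREG1, a receptor for autophagy of the endoplasmic reticulum, was the lowest of the group by the mean of its pair, at 394 and 765 (-0.93) and at 357 and 660.08 (-0.86). The retromer subunit VPS26B was at 327 and 584 (-0.81) and at 149 and 206 (-0.43). SFT2D2 was at 286 and 618 (-1.07), while its second probe set was at 95.3 and 99.2 (-0.050). SEC22C was at 955 and 1509 (-0.65) and at 175 and 226 (-0.34), ARL6 at -0.67 and -0.44, and the autophagy inhibitor RUBCN at -0.64 and -0.41.

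Signalling genes numbered 12. WWC3, of a family that activates the Hippo kinases, was at 182 and 311 (-0.73) and at 162 and 312 (-0.88). PRKCH, a protein kinase C, was at 423 and 817 (-0.92) and at 203 and 284 (-0.45). INHBA, the activin A subunit, was near the expression limit at 46.6 and 79.8 (-0.62) and at 44.7 and 82.6 (-0.70). The Hedgehog receptor PTCH1 was at 461 and 802 (-0.78) and at 49.0 and 70.6 (-0.41), and the Wnt receptor FZD7 at 61.4 and 100.1 (-0.59) and at 50.3 and 62.3 (-0.24). RHOU was at 1692 and 2875 (-0.76) and at 560.3 and 750.4 (-0.41), among the brightest members. GRB10, an adaptor that restrains insulin receptor signalling, was at 660.3 and 1065 (-0.68) and at -0.34. PPP2R5B, a regulatory subunit of phosphatase 2A, was at 208 and 342 (-0.67) and at 191 and 282 (-0.53), HYCC2 at -0.77 and -0.13, the Ras inhibitor RASA2 at 355 and 543 (-0.59) and 152 and 171 (-0.16), and the kinase WNK3 at -0.67 and -0.016.

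Enzymes of lipid and steroid metabolism numbered 9. Of these, 5 were past 1.5-fold by both probe sets, as were 41 of all 126 members (32.5%). By the mean over all expressed probe sets, 4 of the 9 were past 1.5-fold. HSD17B6, which can form dihydrotestosterone from androstanediol, was at 137 and 252 (-0.81) and at 123 and 234 (-0.85). STS, which frees steroids from their sulfates, was at 79.8 and 141 (-0.71) and at 52.9 and 57.2 (-0.086). The phospholipid phosphatase PLPP5 was bright, at 1694 and 3004 (-0.82) and at 697 and 1230.2 (-0.80), with its other 2 probe sets both at -0.51. GLTP, a glycolipid carrier, was at 1152 and 2128 (-0.88) and at 260.1 and 447 (-0.74). ACADL, an acyl-CoA dehydrogenase of fatty acid oxidation, was at 1061 and 1626 (-0.61) and at 253 and 492 (-0.92), and the acyltransferase LPGAT1 at 354 and 606 (-0.75) and at 152 and 238 (-0.59). CDS2, which makes CDP-diacylglycerol for phosphoinositide synthesis, was at 198 and 448 (-1.12) by its brightest probe set and at 208 and 227 (-0.12) by its second. The remaining expressed probe sets stood at -0.41 and 0.049, so the 4 of CDS2 spread widely. The sphingolipid enzymes SGMS2 and KDSR were at -0.68 and -0.66 by the brightest, but at -0.071 and -0.012 by the second.

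Of 10 members in amino acid and mitochondrial metabolism, several belong to the breakdown of amino acids. MCCC2, a subunit of methylcrotonyl-CoA carboxylase in leucine breakdown, was at 1192 and 2141 (-0.84) and at 1019 and 2379.7 (-1.21). PPM1K, the phosphatase that activates the branched-chain ketoacid dehydrogenase, was at 504 and 839 (-0.72), 399 and 738 (-0.86), and 58.0 and 112 (-0.79). HGD, homogentisate dioxygenase of tyrosine breakdown, was at 283 and 539 (-0.89) and at 204 and 307 (-0.55), and its other probe sets were at -0.94 and -0.54. ARG2, the mitochondrial arginase, had the widest gap between its pair, at 388 and 882 (-1.15) against 163 and 170.3 (-0.057). GSTA4 (-0.76 and -0.44), CARNMT1 (-0.70 and -0.39), CSAD (-0.65 and -0.42), NNT (-0.64 and -0.25) and DNAJC11, at 461 and 707 (-0.60) and 236 and 259 (-0.13), followed, beside GLYATL1.

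Sugar-transferring enzymes were 6 members. ST6GALNAC4, a sialyltransferase, was at 114 and 253 (-1.04) and at 115 and 243 (-0.99), with another probe set at -0.46. The ending of the brightest ID, _x_at, marks probes that can bind other transcripts. The brightest IDs of PPFIA3, LIN7C and CFAP68 end the same way. So do the second IDs of KBTBD2, RETREG1, TMEM38B, MBTD1 and LOC729732, and this limit holds for all of these too. GNPTAB, which makes the mannose 6-phosphate tag of lysosomal enzymes, was at 480.1 and 779 (-0.68) and at 114 and 186 (-0.64). B3GNT2 was at 243 and 374 (-0.59) and at 106 and 148 (-0.42), and B4GALT6 at 215 and 342 (-0.63) and at 92.4 and 114 (-0.27). B3GAT3, of the glycosaminoglycan linker, was at 87.0 and 168 (-0.83) and at 90.2 and 103 (-0.16), and GXYLT2 at 43.6 and 86.6 (-0.78) and at -0.21.

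Among 5 genes of transport, the calcium pump ATP2B4 was at 102 and 209.9 (-0.94) and at 83.4 and 155 (-0.78), beside SLC39A6. The glucose transporter SLC2A12 was at 158 and 312 (-0.92) and at 99.95 and 124 (-0.27). KPNA6, an importin alpha, was at 390.5 and 734 (-0.88) and at 459 and 596 (-0.37), and the endoplasmic reticulum channel TMEM38B at 225 and 377 (-0.70) and at 197 and 289 (-0.52).

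The cytoskeleton, cilium and cell junction gave 12 members, led by SORBS2 and MAP9. SORBS2, an adaptor of actin structures, was at 142 and 348 (-1.20) and at 61.8 and 133 (-0.94), with others at -0.85 and -0.24. A further 6 of its 10 probe sets were below the limit, and its mean over all 10 was -0.38. PPFIA3, a liprin scaffold, was at 255 and 514 (-0.97) and at 194 and 376 (-0.90). PLEKHH1 (-0.77 and -0.72), FEZ2 (-0.84 and -0.52), the polarity protein LIN7C (-0.68 and -0.61) and CFAP68 (-0.68 and -0.57) were lower by both as well. The microtubule and centriole genes CEP120, TTL, POC1A, KATNAL1 and KIF3A lay between -0.90 and -0.60 at the brightest and between -0.49 and -0.11 at the second.

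Both members of the DNA damage response were past 1.5-fold by both probe sets, as were 32.5% of all 126 members. RHNO1, which helps the checkpoint clamp activate ATR, was at 500.1 and 979.5 (-0.95) and at 287 and 619 (-1.07). BARD1, the partner of BRCA1, was at 1053 and 1601 (-0.60), 777 and 1271 (-0.70) and, by a dimmer probe set, 109.5 and 140.1 (-0.31).

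The last 14 members have other or less known roles. PTGFRN, a tetraspanin-associated membrane protein, was at 187 and 437 (-1.16) and at 174 and 221 (-0.31), and DGCR2 at 966 and 1601 (-0.72) and at 41.8 and 72.8 (-0.62). C11orf71, NMT1, GPNMB, RWDD2B, AAMDC, TMCC1, SPRYD7, GNB1L, FSD1L, MMP16, FAM43A and the co-chaperone BAG2 lay between -0.83 and -0.60 at the brightest. At the second probe set RWDD2B was lowest of these 12, at -0.55, and BAG2 highest, at -0.046.

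**Figure D4:**
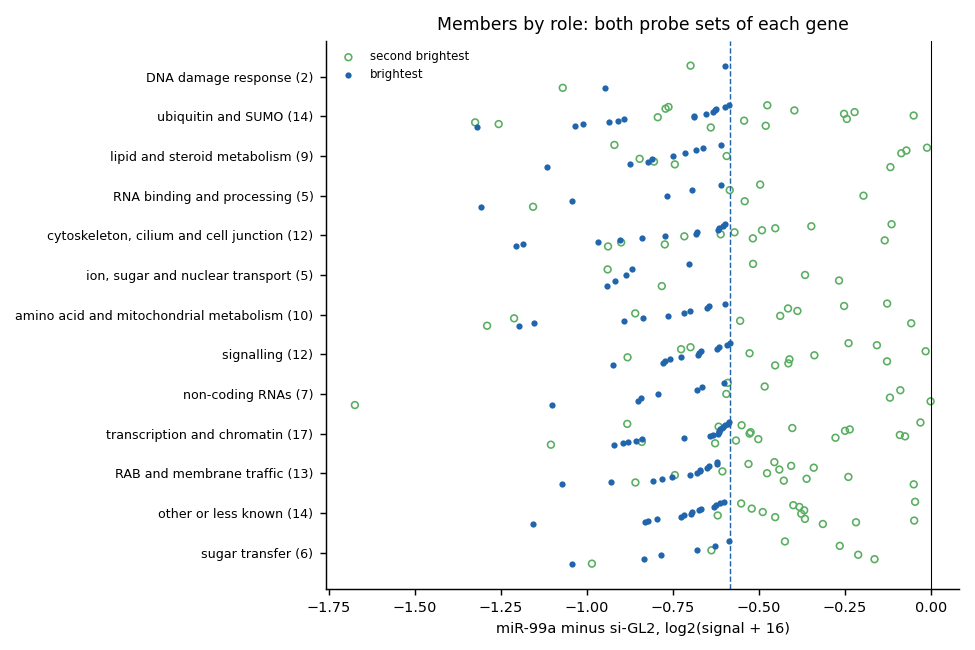
Differences of all 126 members, grouped by role with the number of genes in brackets, as miR-99a minus si-GL2 on the log2(signal + 16) scale; filled blue points are the brightest and open green points the second brightest probe set of each gene. Every brightest value lies left of the dashed line at -0.585 by selection, while second values spread up to 0 in most groups.

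At the edge of the selection the values run on without a gap. The members nearest the limit were FZD7, MYCBP2, PHTF2, B3GNT2 and ZNF25, all between -0.5892 and -0.5853. The genes nearest outside it, lower by their second probe set too, were NR1D2, at 389 and 592 (-0.58499), CCSAP, at 496 and 749 (-0.581), CEP70, at 1025 and 1539 (-0.579), TMEM30A, at 826 and 1242 (-0.579), and ZC3H6, at 95.9 and 151 (-0.579). NR1D2 lies between the rounded limit and the exact logarithm of 1.5, with which 137 genes in place of 136 would have met the rule. A further 23 genes passed at the brightest probe set but lay at or above 0 at the second. Chosen after their values were seen, examples are HIP1 (-1.03 and 0.23), TMF1 (-0.88 and 0.026) and the Argonaute gene AGO4 (-0.60 and 0.019). At the other margin 14 members had a second difference above -0.10. The SD of a probe set's difference, from the pairs of all 5842 genes, was 0.18, pooled over all signal levels. It is a spread between probe sets of the same gene. Error that both probe sets share, as from the culture or the array, is not in it. By this spread 22 members had a second difference within 1 SD of 0, and the other members are not thereby resolved. Of these 22, 7 had further expressed probe sets, and in HYCC2, MBTD1, WNK3 and PHTF2 1 of these was past 1.5-fold.

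Gene families, gathered by symbol, put the members beside their relatives with 2 or more expressed probe sets. The families were chosen with earlier results of these data known, so their shares are no independent evidence. Symbols that begin with RAB and a digit or with TBC1D held 7 members among 55 genes (12.7%, against 2.16% of all). The mirrored rule was met by 0 of the 55 and by only 0.839% of all 5842, so this 0 says little. The 55 include effectors such as the RAB11FIP genes and the non-coding RAB30-DT, and of the 48 RAB or TBC genes proper 5 (10.4%) were members. The 48 of the 55 that were not members had a median of -0.10 at the brightest probe set, from -0.51 for RAB12 to 0.28 for RAB8B, and 33 lay below 0. Over all 5842 genes 56.8% lay below 0. RAB12, RAB27B, TBC1D30 and TBC1D32 were at -0.51, -0.51, -0.49 and -0.49. RAB11A, whose effectors RAB11FIP2 and RAB11FIP4 are members, was at 0.24 and 0.22.

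Kelch and BTB genes held 3 members of 33 (9.09%), with a median of -0.20 and 29 genes below 0. KLHL36 (-0.47 and -0.77) and BTBD7 (-0.48 and -0.17) came next, and ENC1 stood at the opposite end, at 0.998 and 1.01. Glycosylation enzymes held 4 of 38 (10.5%), yet their median was -0.0044 and 20 of 38 lay below 0. FUT8 (-0.79 and 0.042) missed by its second probe set, and B4GALT5 (0.42 and 0.64) and GALNT2 (0.40 and 0.75) stood at the opposite end by the mean of both. Ubiquitin ligases held 4 of 104 (3.85%), with a median of -0.11. The symbols searched did not take in the member ligases TMEM129 and MYCBP2, nor the sugar-transferring members GNPTAB and GXYLT2.

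The list of miR-99 family targets is not a curated set. It was written from memory with earlier results of these data known, so its values are no independent evidence. It held 3 members of 22 (13.6%): PPFIA3, ZNRF1 and GRHL1. Another 2, SMARCA5 and BMPR2, met the rule and are among the genes left out. The 22 had medians of -0.35 and -0.28, and 21 lay below 0 at the brightest probe set. RRAGD (-0.34 and -1.19), SLC44A1 (-0.55 and -0.80) and TMEM30A (-0.58 and -0.67) were past 1.5-fold only by their second. Of the 126 members, 123 are thus not on this list.

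In the other families the shares ran up to 5%. Zinc finger factors held 5 of 189 (2.65%, 1 of them the antisense RNA ZNF232-AS1), solute carriers 2 of 117 (1.71%), numbered transmembrane proteins 2 of 70 (2.86%), and serine and threonine phosphatases 2 of 40 (5%). RNA-binding and splicing factors held 2 of 114 (1.75%), vesicle coat, sorting and fusion proteins 2 of 90 (2.22%), chromatin regulators 1 of 80 (1.25%), chaperones 1 of 40 (2.5%) and nuclear transport genes 1 of 31 (3.23%). Among 39 deubiquitinating enzymes by symbol the 1 hit was the antisense RNA OTUD6B-AS1. The symbols searched did not take in YOD1, MINDY2 and OTULIN, which are members, so this count does not cover all such enzymes. No member came from 64 ribosomal protein genes, 25 tyrosine and dual phosphatases, 21 cyclins and CDKs, 21 MAP kinase cascade genes or 15 ubiquitin-conjugating enzymes. At these sizes 2.16% corresponds to few genes, and no list was tested.

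**Figure D5:**
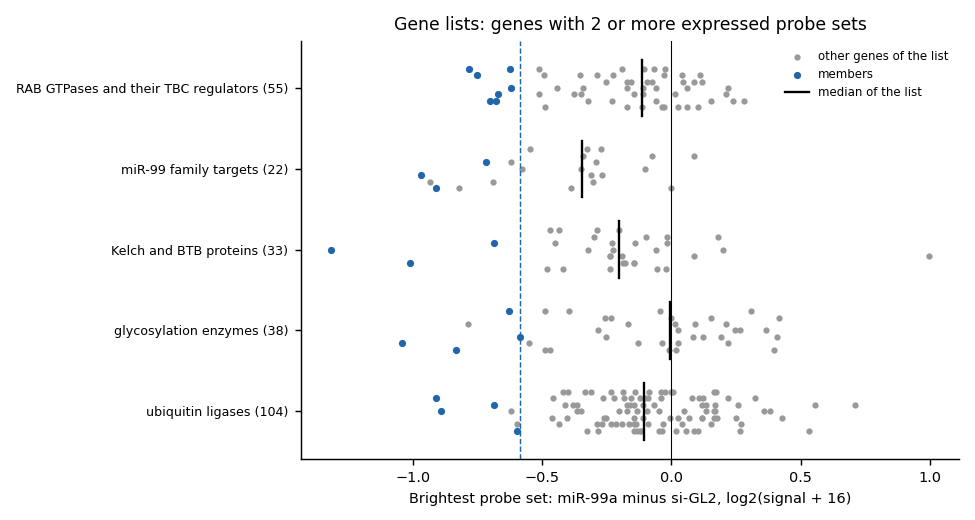
Difference at the brightest probe set for genes of 5 lists that have 2 or more expressed probe sets, as miR-99a minus si-GL2 on the log2(signal + 16) scale; blue points are members, grey points other genes, black bars the median of each list, and list sizes are in brackets. Grey points beyond the dashed line at -0.585 failed by the second probe set or, for SMARCA5 and BMPR2, were left out.

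Promoters were compared as a feature that played no part in the selection. RefSeq promoters, 250 bases before to 50 after a gene's start in GRCh38.p14, were matched for 101 members and for 4875 of the 5842 genes. Median GC content was 66.3% in members and 66% in all. Motifs were searched on both strands. The GC box GGGCGG was present in 72.3% of members and 71.7% of all, and CCAAT in 35.6% and 37.0%. The E-box CACGTG was in 7 of the 101 members (6.93%) and 537 of the 4875 genes, the ETS core CCGGAAG in 12.9% and 21.0%, TATAAA in 2.97% and 4.78%, the AP-1 site TGACTCA in 3.96% and 2.61%, and the palindromic NRF1 motif in 1.98% and 2.58%. The cyclic AMP response element TGACGTCA was in 4 members (3.96%), close to the 3.49% of all.

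The promoters of these 4 are shown around that element, in capitals, as an example of what was matched. All lie upstream of the gene start, and ARG2 holds 2 copies (chr14:67619718-67619785 and chr14:67619826-67619893, plus strand). The others are B3GAT3 (chr11:62622175-62622236), CARNMT1 (chr9:75028482-75028549) and H4C8 (chr6:26285628-26285695), all on the minus strand.
ARG2, distal: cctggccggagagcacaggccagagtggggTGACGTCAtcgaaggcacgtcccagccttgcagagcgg
ARG2, proximal: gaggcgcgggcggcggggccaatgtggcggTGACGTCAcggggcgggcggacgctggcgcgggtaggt
B3GAT3: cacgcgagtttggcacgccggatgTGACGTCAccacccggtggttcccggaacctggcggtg
CARNMT1: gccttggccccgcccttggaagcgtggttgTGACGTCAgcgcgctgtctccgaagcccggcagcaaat
H4C8: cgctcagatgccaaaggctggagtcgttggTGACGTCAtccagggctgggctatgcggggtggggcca
A match is a description of the letters and not a bound site. The brightest differences of the 4 were -1.15, -0.83, -0.70 and -0.61, and their second differences -0.057, -0.16, -0.39 and -0.62.

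For 5 of the 126 members (3.97%) the next gene along the chromosome with 2 or more expressed probe sets was also a member, and so it was for 2.17% of all such genes. These pairs were PLEKHH1 with ARG2, FSD1L with TMEM38B, ACADL with BARD1, TBC1D4 with MYCBP2, and the non-coding RNAs FAM86B2-DT with LOC729732. PLEKHH1 with ARG2, FSD1L with TMEM38B and FAM86B2-DT with LOC729732 lay within 1 Mb of each other, while ACADL with BARD1 and TBC1D4 with MYCBP2 did not. Other pairs of members within 1 Mb had such genes between them. Between KCTD10 and GLTP lay MMAB, MVK and UBE3B, which differed by between -0.27 and 0.14. The genes between DGCR2 and GNB1L, C22orf39 and TBX1, were both lower, from -0.37 to -0.11. Those between PTGFRN and TENT5C ran from -0.14 to 0.25, and those between H4C8 and ZNF322 from -0.16 to 0.10.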

How the data were processed

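The values deposited by the authors are linear intensities, 1 for each probe set of an array. The labels' protocols name Trizol for the RNA and biotin for the labelling. For the summary algorithm and scaling, the method is not given in the sources used here. Intensities were used as deposited, as log2(signal + 16). The platform annotation gave 1 gene name to 41097 probe sets, several to 1801 and none to 11777, and only the first were used. Probe sets were ranked within a gene by their mean over both arrays. With 1 array in each of 2 groups, the number of arrays limits the precision and no test was run. The members and lists were chosen with earlier results of these data known. Role groups were assigned after the members were seen. Every member is named once under its role, with signals of the brightest pair of probe sets for the 20 lowest by the mean of both differences, the 5 brightest, the 5 nearest the limit, the 5 with the widest gap, those with a further probe set above 0, those on a list, and the 2 lowest of each role, and for the 5 genes just outside the limit at the brightest probe set. Non-members named beside a family were chosen after their values were seen. Names were matched to a GRCh38.p14 gene table, used for names, gene types and neighbours. The rule was tested on simulated data. Alternatives were pseudocounts of 1 and 64, median centring, quantile normalization, no expression limit or the 75th percentile, a 2-fold limit, 1.5-fold at both probe sets, means over probe sets, and omission of probe sets with IDs ending in _x_at or _s_at. Python 3.11.15, numpy 2.4.6, pandas 2.3.3 and matplotlib 3.10.9 were used.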

Additional observations from a re-analysis of the deposited data

How the results depend on the processing

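With the named genes left out, the number of genes that met the rule was 126. The number became 146 with a pseudocount of 1, 77 with 64, 134 after median centring, 94 after quantile normalization and 89 without _x_at and _s_at probe sets. It was 223 without an expression limit and 47 at the 75th percentile, 14 at 2-fold, 41 with 1.5-fold at both probe sets and 74 by means over expressed probe sets. Of the 126 members, 76 met it with a pseudocount of 64, 94 after quantile normalization and 55 by means. At 2-fold the medians were -1.13 and -0.71 at the brightest and second probe sets, and with both past 1.5-fold the second median was -0.79. The stricter limits select lower genes by construction. All brightest differences stayed below 0 under the alternatives that gave a value. For most alternatives this was fixed in advance and is no sign of robustness. A pseudocount cannot change the sign at a given probe set, and the stricter limits only drop genes. Median centring shifted every difference by only 0.0093. Second differences turned above 0 after quantile normalization for KDSR (0.00020), PART1 (0.027), PHTF2 (0.029) and WNK3 (0.0057), and for DESI2 (0.11) without _x_at and _s_at probe sets, where another probe set takes the second place. The cause of the shifts under quantile normalization was not tested. No replicate could be left out with 1 array per group. No paired analysis was possible for the same reason.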
